A study of Mus musculus with 8 samples.

Results

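Tumour suppressor p53, encoded by Trp53, and 9 genes that it is known to switch on were followed in B16F10 melanomas of mice on a high cholesterol diet (HCD, 4 tumours, HCD 1 to HCD 4) and on a normal diet (ND, 4 tumours, ND 1 to ND 4). The 10 genes were taken by name from the 34745 genes that the files list: Trp53, Mdm2, Cdkn1a, Ccng1, Bax, Bbc3, Pmaip1, Trp53inp1, Sesn1 and Zmat3. The choice was by name and function, with no threshold on values, but earlier results of these data were known when it was made. B16F10 is a mouse melanoma cell line, and in both groups the cells had been injected under the skin of C57BL/6J mice, so the groups differ by diet alone as far as the labels say. The labels give no age, sex or diet duration, and they do not say whether each tumour came from its own mouse. The p-values therefore reflect only how far these libraries scatter, and that scatter may be technical. RNA of whole tumours was sequenced, so a lower share of a cell type and less RNA per cell cannot be told apart.

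In unstressed cells p53 is made and destroyed continuously, because the ubiquitin ligase MDM2 binds it and sends it to the proteasome. DNA damage, oncogene activity and other stresses release p53 from MDM2, and p53 then switches on genes of cell cycle arrest, cell death, repair and metabolism. Mdm2 is itself a p53 target, which closes a negative feedback loop. Melanomas often keep an unmutated p53 gene and hold the protein down by other means.

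p53 binds pairs of a decamer (a consensus of 10 bases) near its targets, and 1 such pair lies in the promoter windows of Cdkn1a, the gene of the cell cycle inhibitor p21. RefSeq start sites on GRCm38.p6, the assembly that mm10 is built from, gave windows of 300 bases (250 before a start and 50 after) for 7 of the 10 genes and 11 starts. The strict p53 decamer, which reads the same on both strands, was found in 6 of these 11 windows (54.5%), against 2745 of all 32851 windows (8.36%). A pair of adjoining decamers with at most 1 mismatch, which overlaps the strict decamers by construction, was found in 1 of the 11 windows and in 18 of all windows (0.0548%). The pair in Cdkn1a starts 51 bases before an upstream start and 2841 bases before the downstream start. A match describes letters only, and binding was not measured. The 250 bases before the upstream Cdkn1a start (plus strand, chr17:29090729-29090978) are printed because they hold the pair, in capitals. A further strict decamer of this window, left in lower case, starts 73 bases before the start.
Cdkn1a: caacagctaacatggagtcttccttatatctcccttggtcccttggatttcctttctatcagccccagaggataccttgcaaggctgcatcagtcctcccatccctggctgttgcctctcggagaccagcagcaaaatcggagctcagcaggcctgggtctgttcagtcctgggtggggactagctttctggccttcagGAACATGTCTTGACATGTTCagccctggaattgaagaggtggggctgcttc

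Single strict decamers lay near starts of Trp53, Mdm2, Ccng1, Bax and Sesn1. They are shown in capitals within stretches of 40 bases, so that the 5 versions can be compared with the Cdkn1a pair. The positions are chr11:69580269-69580308 (plus strand) for Trp53, chr10:117710920-117710959 (minus) for Mdm2, chr11:40755447-40755486 (minus) for Ccng1, chr7:45467075-45467114 (minus) for Bax and chr10:41887251-41887290 (plus) for Sesn1.
Trp53: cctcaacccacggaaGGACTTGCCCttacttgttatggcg
Mdm2: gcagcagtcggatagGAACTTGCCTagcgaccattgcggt
Ccng1: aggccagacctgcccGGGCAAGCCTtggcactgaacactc
Bax: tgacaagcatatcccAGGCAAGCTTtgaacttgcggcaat
Sesn1: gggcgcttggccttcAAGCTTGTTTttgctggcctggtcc

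Bbc3, which encodes the death inducer PUMA, had 3 windows and no strict decamer in any of them. The search allowed no mismatch in a single decamer and at most 1 in a pair, so it cannot show that a p53 site is absent. The 250 bases before the first listed start of Bbc3 (plus strand, chr7:16309333-16309582) are shown because Bbc3 differed most between the groups among the members tested.
Bbc3: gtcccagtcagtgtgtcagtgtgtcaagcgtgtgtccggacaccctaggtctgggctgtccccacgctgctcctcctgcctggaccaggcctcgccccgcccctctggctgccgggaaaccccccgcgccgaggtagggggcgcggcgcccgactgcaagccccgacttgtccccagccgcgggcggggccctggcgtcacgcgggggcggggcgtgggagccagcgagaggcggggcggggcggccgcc

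Library totals ran from 16137885 to 17722093 counts in HCD and from 14599222 to 17637202 counts in ND. Melanocyte markers (Pmel, Tyr, Dct, Tyrp1, Mlana and Sox10) summed to 11185 to 12731 FPKM (counts scaled by gene length and library total) in HCD. In ND they summed to 11717 to 12389 FPKM. Melanocytic RNA was thus seen in every library, but these markers do not identify the line. ND 2, ND 3 and ND 4 stood apart with counts on 439 to 467 olfactory and vomeronasal receptor genes, against 8 to 13 in the HCD libraries and 11 in ND 1. Mitochondrially encoded genes took 11.4 to 12.9% of counts in HCD and 13.7 to 14.7% in ND. The 4 endothelial markers summed to 11.5 to 12.9 FPKM in HCD and 8.30 to 10.3 FPKM in ND. Genes with a count numbered 16285 to 16728 in HCD and 16745 to 18224 in ND. The mitochondrial, endothelial and gene number measures each separated the groups (two-sided exact permutation test, p = 0.0286 for each, and 0.105 adjusted over the 11 library measures tested). The 6 macrophage markers, all detected in every library, summed to 166 to 221 FPKM in HCD and 121 to 195 FPKM in ND. The 6 skeletal muscle markers summed to 0.700 to 1.82 FPKM in HCD and 1.11 to 23.9 FPKM in ND, highest in ND 2, with Myh4, Tnnt3 and Myl1 at 0 in 2, 3 and 3 libraries. The part of these differences in the values below was not tested, apart from the fit with a term for ND 2, ND 3 and ND 4 and the fits without single libraries.

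Levels of the 10 genes spanned a wide range. Per gene length, Cdkn1a stood highest, at a mean of 147 ± 23.9 FPKM over all libraries (SD, n = 8). Bax, which encodes a protein that opens the mitochondrial outer membrane in apoptosis, followed at 139 ± 13.3 FPKM, and Ccng1, which encodes cyclin G1, at 72.7 ± 20.1 FPKM. All 3 lay above 98.5% of the listed genes in mean FPKM. Trp53 itself was at 13.5 ± 1.29 FPKM and Mdm2 at 7.4 ± 0.689 FPKM. Trp53inp1, a stress-induced p53 cofactor and autophagy gene, was at 6.67 ± 1.8 FPKM, Zmat3, an RNA-binding protein gene, at 3.5 ± 0.546 FPKM, Sesn1, an mTORC1 inhibitor gene, at 3.00 ± 0.578 FPKM and Bbc3 at 2.73 ± 0.820 FPKM. Pmaip1, which encodes the death inducer NOXA, was last at 0.203 ± 0.116 FPKM.

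In this order 4 pairs of neighbours did not overlap in range: Bax above Ccng1, Ccng1 above Trp53, Trp53 above Mdm2 and Bbc3 above Pmaip1. The ranges of the other 5 pairs overlapped, with Cdkn1a above Bax in 6 of 8 libraries and Sesn1 above Bbc3 in 5 of 8. The lengths behind the deposited FPKM differ from the joined exons of GENCODE M21, for example 869 against 1576 bases for Bax and 7108 against 4045 bases for Trp53. With the GENCODE lengths, a choice made after the values were seen, Bax was at 76.6 FPKM, below Ccng1 at 89.4 FPKM, and Bbc3 at 3.72 FPKM stood above Sesn1 at 2.51 FPKM. Trp53 was then at 23.6 FPKM and Mdm2 at 14.2 FPKM.

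**Figure D1:**
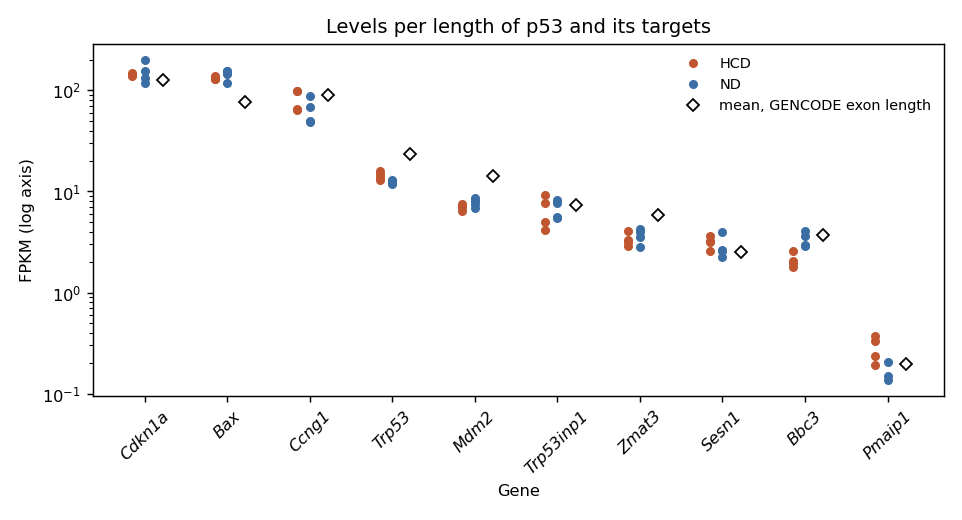
FPKM on a log axis of the 10 genes, ordered by mean, in 4 HCD libraries (orange points) and 4 ND libraries (blue points), with open diamonds for the mean over 8 libraries computed with GENCODE exon lengths. Cdkn1a, Bax and Ccng1 stand far above Trp53 and Mdm2, and Pmaip1 is lowest, with its 0 in ND 2 not drawn.

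The comparison of HCD with ND asks which p53 pathway transcripts differ between tumours grown under the 2 diets. None of the 9 members tested passed the threshold (edgeR's quasi-likelihood test, p adjusted by Benjamini-Hochberg over 13186 genes, under 0.05), where 0.182% of all genes tested passed, 0.0683% as higher and 0.114% as lower in HCD. At an unadjusted p under 0.05 stood 2 members, Bbc3 and Mdm2, both lower in HCD, against 7.49% of all genes in that direction. The count of lower members was 0 with the term for ND 2, ND 3 and ND 4, and 1 without HCD 2, HCD 3, ND 1 or ND 2 or without the filter on low counts. DESeq2 called 1 member, Bbc3, as lower (adjusted p = 0.00783), and 3.27% of all genes, 1.83% as lower. Of the 9 members, 3 had a higher and 6 a lower fitted value in HCD, with a median log2 fold change of -0.12, while the median over all genes was 0.0049. By fitted value, 4 members were lower without ND 2, where the median was 0.015. Levels between groups are given as CPM (counts scaled to a common library total, with TMM factors), and log2 fold changes are HCD over ND.

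Bbc3 (ENSMUSG00000002083, chromosome 7, 16308393 to 16318205, mm10) had the largest fitted difference of the 9 members tested. PUMA, its product, is a BH3-only protein that neutralises BCL2-type survival proteins and is a main route from p53 to apoptosis. Bbc3 was at 7.14, 5.51, 5.08 and 5.96 CPM in HCD 1 to HCD 4, against 8.35, 10.7, 8.83 and 11.9 CPM in ND 1 to ND 4. All HCD libraries lay below all ND libraries, a separation that 4.73% of the genes tested showed in that direction and 9.67% in either direction. The mean was 5.92 ± 0.886 CPM in HCD and 9.95 ± 1.66 CPM in ND (SD, n = 4 each here and below), a log2 fold change of -0.75 (SE 0.167, edgeR adjusted p = 0.0994, unadjusted p = 0.00116). Its counts were low, 88 to 119 in HCD and 143 to 177 in ND. With a term for ND 2, ND 3 and ND 4, which rests the contrast on ND 1 against the HCD libraries, the log2 fold change was -0.50 (SE 0.249, edgeR adjusted p = 0.497).

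Pmaip1 (ENSMUSG00000024521, chromosome 18, 66458533 to 66465565) encodes the other BH3-only protein of the list and was close to the detection limit. It had 10, 16, 15 and 9 counts in HCD 1 to HCD 4, and 7, 0, 6 and 8 counts in ND 1 to ND 4. Raw counts of the groups did not overlap, but CPM values did, since HCD 4 was at 0.511 CPM and ND 4 at 0.555 CPM. It did not pass the filter on low counts and is the member left out of the test. The log2 ratio of the group means of CPM was 1.15, and without the filter edgeR gave 1.16 (SE 0.653, adjusted p = 0.55). Without ND 2, the library with 0 counts, the log2 ratio was 0.74. Pmaip1 and Bbc3 thus had fitted values of opposite sign, and the difference between them was not tested.

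Bax (ENSMUSG00000003873, chromosome 7, 45461697 to 45466898) was at 109, 111, 119 and 118 CPM in HCD 1 to HCD 4, against 136, 139, 130 and 104 CPM in ND 1 to ND 4. ND 4 lay below every HCD library while the other ND libraries lay above them. The log2 fold change was -0.16 (SE 0.0919, edgeR adjusted p = 0.477), and it was -0.24 without ND 4 and -0.25 with the term for ND 2, ND 3 and ND 4. Bax shares 192 exon bases with Gm45808 on the same strand, so reads there may be divided between them.

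Trp53 (ENSMUSG00000059552, chromosome 11, 69580359 to 69591873) was at 108, 91.1, 97.2 and 106 CPM in HCD 1 to HCD 4, against 93.4, 92.6, 85.7 and 90.6 CPM in ND 1 to ND 4. HCD 2 lay within the ND range and the other HCD libraries above it. As FPKM, which carry no TMM factors, Trp53 was at 13.06 to 15.76 in HCD and 11.77 to 13.03 in ND, and the groups just failed to overlap. In CPM, where Trp53 overlapped, 4.94% of the genes tested had all HCD libraries above all ND libraries. That share was not computed for FPKM. The mean was 101 ± 7.96 CPM in HCD and 90.6 ± 3.46 CPM in ND. The log2 fold change was 0.15 (SE 0.0733, edgeR adjusted p = 0.377, unadjusted p = 0.0645). Trp53 is the least variable member within groups, with an SD of 0.0905 on the log2 scale, against a median of 0.184 for all genes tested. Trp53-ps, its processed copy on chromosome 17, had a summed count of 1.

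Mdm2 (ENSMUSG00000020184, chromosome 10, 117688875 to 117710758) had a fitted value of the opposite sign. It was at 71.1, 61.4, 67.4 and 70.7 CPM in HCD 1 to HCD 4, against 79.3, 75.6, 69.3 and 85.1 CPM in ND 1 to ND 4. The groups met only at ND 3, which lay below HCD 1 and HCD 4. The mean was 67.7 ± 4.45 CPM in HCD and 77.3 ± 6.64 CPM in ND. The log2 fold change was -0.19 (SE 0.0832, edgeR adjusted p = 0.322, unadjusted p = 0.0428).

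The ratio of Mdm2 to Trp53 does not depend on library scaling and separated the groups. On the FPKM scale it was 0.476, 0.490, 0.504 and 0.485 in HCD 1 to HCD 4, against 0.617, 0.593, 0.587 and 0.682 in ND 1 to ND 4. Every HCD library lay below every ND library. ND 1 lacks the receptor counts of the other ND libraries, and the part of these counts in the ratio was not tested. The mean was 0.489 ± 0.0116 in HCD and 0.620 ± 0.0434 in ND (exact permutation test, two-sided, p = 0.0286, which is the lowest value possible with 4 libraries a group). The ratio was chosen after the values of both genes were seen, as 1 of 3 ratios computed. Its p adjusted over the 3 is 0.0857. Fitted values of opposite sign favour a separation of the ratio, and both p-values come from the same libraries that led to the choice. They therefore cannot test the separation, and the adjustment does not cover the choice among the 36 pairs of members tested. The share of gene pairs whose ratio separates the groups was not computed. The ratio of Cdkn1a to Trp53 was 9.32 to 10.8 in HCD and 9.99 to 15.6 in ND (exact permutation p = 0.171). That of Bbc3 to Bax was 0.0128 to 0.0196 in HCD and 0.0184 to 0.0344 in ND (exact permutation p = 0.0571).

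**Figure D2:**
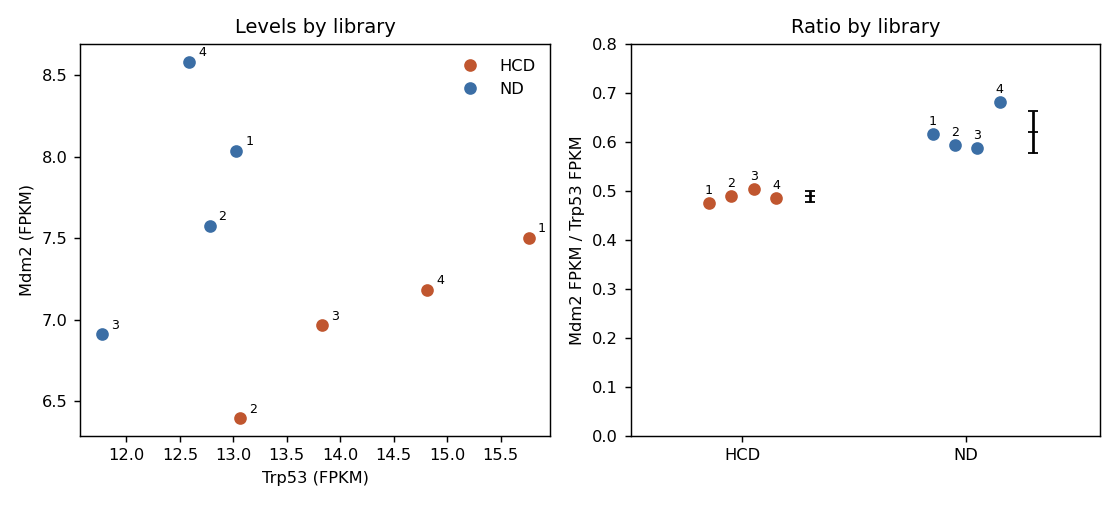
Left, Mdm2 against Trp53 in FPKM, with 1 point per library numbered by replicate. Right, the ratio of Mdm2 FPKM to Trp53 FPKM in HCD and ND libraries with mean and SD (n = 4 each), where the HCD points lie between 0.476 and 0.504 and the ND points between 0.587 and 0.682.

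Cdkn1a (ENSMUSG00000023067, chromosome 17, 29090976 to 29100727) encodes p21, which binds cyclin-dependent kinases and is the main arm of arrest by p53. It was at 437, 424, 424 and 451 CPM in HCD 1 to HCD 4, against 480, 626, 370 and 414 CPM in ND 1 to ND 4. The HCD libraries lay close together inside the ND range, and ND 2 was far above the rest. The mean was 434 ± 13.0 CPM in HCD and 473 ± 112 CPM in ND. The log2 fold change was -0.12 (SE 0.137, edgeR adjusted p = 0.746). It was 0.043 without ND 2 and -0.22 without ND 3. The ND 2 library also had the highest muscle marker sum, and its part in the Cdkn1a value was not tested. Cdkn1a shares 273 exon bases with the transcript AC167363.2 on the opposite strand.

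Ccng1 (ENSMUSG00000020326, chromosome 11, 40748552 to 40755311) encodes a cyclin that recruits a phosphatase to MDM2 and so feeds back on p53. It split the libraries of each group. It was at 414, 276, 270 and 427 CPM in HCD 1 to HCD 4, against 214, 388, 303 and 219 CPM in ND 1 to ND 4. HCD 1, HCD 4 and ND 2 were high and ND 1 and ND 4 low, so the groups overlapped widely. The log2 fold change was 0.30 (SE 0.216, edgeR adjusted p = 0.574). Without single libraries it ran from 0.19 (without HCD 4, with 0.19 also without ND 1 and 0.20 without ND 4) to 0.50 (without ND 2), and it was 0.70 with the term for ND 2, ND 3 and ND 4. The edgeR adjusted p of these fits lay between 0.28 and 0.819.

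Trp53inp1 (ENSMUSG00000028211, chromosome 4, 11156431 to 11174379) was at 64.3, 29.4, 35.9 and 56.2 CPM in HCD 1 to HCD 4, against 56.2, 60.6, 40.5 and 41.2 CPM in ND 1 to ND 4. HCD 1 and HCD 4 again stood above HCD 2 and HCD 3, by up to 2.18 times. The log2 fold change was -0.096 (SE 0.24, edgeR adjusted p = 0.898), with the widest spread within groups of the members tested, an SD of 0.43 on the log2 scale. It was 0.071 without HCD 2, 0.0071 without HCD 3, 0.015 without ND 2, -0.30 without HCD 1 and, once ND 2, ND 3 and ND 4 had their own term, -0.27.

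Sesn1 (ENSMUSG00000038332, chromosome 10, 41809935 to 41908424) was at 11.6, 8.42, 10.4 and 10.8 CPM in HCD 1 to HCD 4, against 7.61, 13.3, 8.95 and 8.74 CPM in ND 1 to ND 4. Its highest and lowest values were both in ND. The log2 fold change was 0.096 (SE 0.186, edgeR adjusted p = 0.862), and it was 0.29 without ND 2, -0.0042 without ND 1 and 0.44 with the term for ND 2, ND 3 and ND 4. Zmat3 (ENSMUSG00000027663, chromosome 3, 32334792 to 32366014), whose product also regulates splicing, was at 74.9, 54.3, 62.2 and 60.8 CPM in HCD 1 to HCD 4, against 81.6, 76.8, 54.5 and 67.5 CPM in ND 1 to ND 4. The ranges covered each other for the most part, and the log2 fold change was -0.15 (SE 0.135, edgeR adjusted p = 0.661). It was -0.37 with the term for ND 2, ND 3 and ND 4, and ran from -0.26 (without ND 3) to -0.072 (without ND 1), with -0.25 without HCD 1 and -0.088 without HCD 2.

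**Figure D3:**
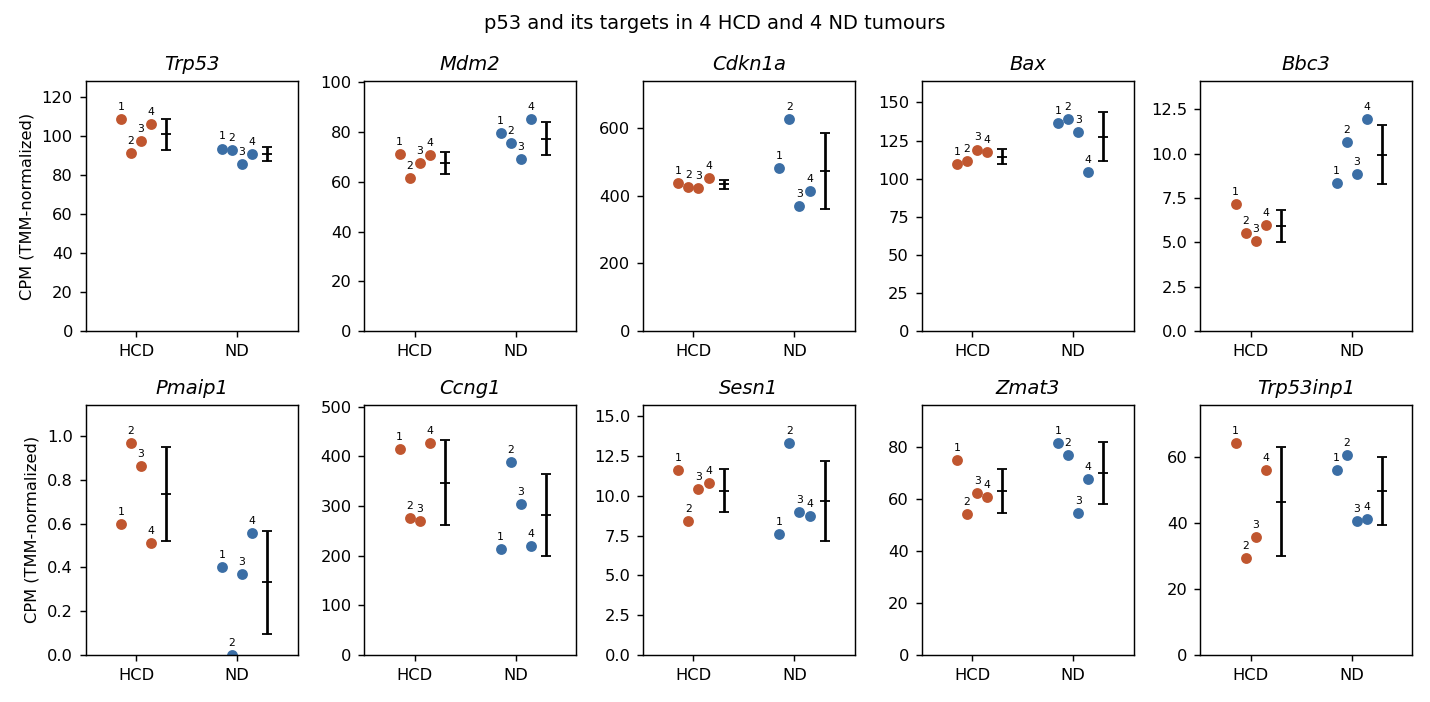
CPM with TMM scaling of the 10 genes in HCD and ND libraries, numbered by replicate, with mean and SD beside the points (n = 4 each). Bbc3 is the 1 gene whose HCD points, 5.08 to 7.14 CPM, all lie below its ND points, 8.35 to 11.9 CPM.

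The members did not follow one common order over the 8 libraries. ND 2 was the highest library for 3 of the 10 genes (Cdkn1a, Bax and Sesn1), and HCD 2 was the lowest for 3 (Mdm2, Zmat3 and Trp53inp1). Of the 36 pairs among the 9 members tested, 29 had a positive Pearson r of log2 CPM over the 8 libraries, with a median of 0.304. The closest pair by Pearson was Ccng1 with Sesn1 (r = 0.821, exact permutation p = 0.0178, Spearman rho = 0.786, exact permutation p = 0.0279, and r = 0.836 without the 2 libraries farthest from the Ccng1 median). Mdm2 with Bbc3 had r = 0.810 (exact permutation p = 0.0145, rho = 0.786, exact permutation p = 0.0279, and r = 0.633 without the 2 farthest libraries). Zmat3 with Trp53inp1 had r = 0.760 (exact permutation p = 0.0366, rho = 0.786, exact permutation p = 0.0279, and r = 0.656 without the 2 farthest libraries). None of the 36 pairs passed adjustment, with a smallest adjusted exact permutation p of 0.32 for Pearson and 0.251 for Spearman. Within the groups of 4 the 3 pairs kept a positive r, for example 0.705 in HCD and 0.902 in ND for Ccng1 with Sesn1. Within HCD every pair without Bax had a positive r, from 0.278 (Cdkn1a with Zmat3) to 0.993 (Trp53 with Trp53inp1). Pairs with Bax ran from -0.698 to 0.169 there. Within ND the signs were mixed. Trp53 with Mdm2 had r = -0.096 over the 8 libraries, against 0.962 within HCD and 0.642 within ND. Values of r within 4 libraries were not tested.

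**Figure D4:**
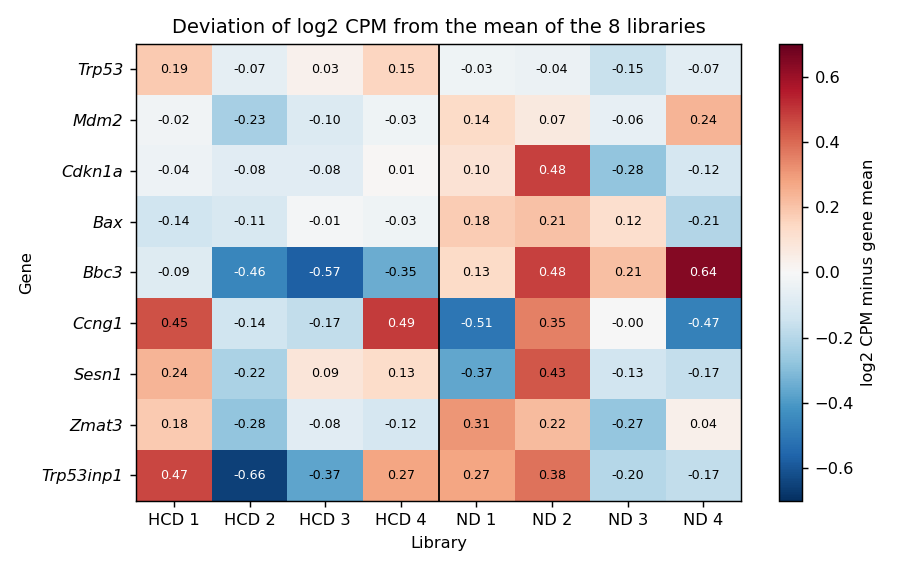
Deviation of log2 CPM from the gene's mean over the 8 libraries for the 9 members tested (rows), with HCD libraries left and ND libraries right of the black line. Bbc3 runs from -0.57 to -0.091 in HCD and from 0.13 to 0.64 in ND, while Ccng1 and Trp53inp1 have both signs within each group.

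The genes whose profile came closest to that of a member were found among the other 10298 genes with a mean of at least 5 CPM, by the root mean square difference of log2 deviations over the 8 libraries. For Trp53 they were Tmem184b (0.0278), Slc38a1 (0.0381) and Pip4k2b (0.041), where Trp53 itself deviated by 0.108. For Mdm2 they were Arhgef17 (0.049), Brd1 (0.0496) and Tut4 (0.0528), against a deviation of Mdm2 of 0.136. For Cdkn1a they were Vopp1 (0.077), Vps13d (0.0783) and Pfkm (0.0808), against 0.208 for Cdkn1a. The nearest member was at 0.182 for Trp53 (Mdm2), 0.155 for Mdm2 (Zmat3) and 0.173 for Cdkn1a (Zmat3). Only 8 members were searched there, so a nearer gene among the 10298 says nothing about likeness among the members.

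Of the 6 kinases that act on p53 or its regulators, none passed (edgeR), and 4 had higher and 2 lower fitted values in HCD, with a median log2 fold change of 0.12. Atm, the kinase that senses double-strand breaks, was at 55.1 ± 2.48 CPM in HCD and 47.9 ± 5.43 CPM in ND (log2 fold change 0.20, edgeR adjusted p = 0.345). With the term for ND 2, ND 3 and ND 4 the Atm value was 0.057. Chek1, the replication checkpoint kinase, was at 16.5 ± 3.9 CPM in HCD and 12.7 ± 2.59 CPM in ND, and Chek2, which phosphorylates p53, at 17.8 ± 0.886 CPM in HCD and 15.7 ± 1.7 CPM in ND. The Chek1 log2 fold change was 0.38, with 0.67 under that term and 0.20 without HCD 4. The Chek2 value was -0.023 with the term for ND 2, ND 3 and ND 4, against 0.18 without it.

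Among 7 inhibitors and modifiers of p53, 6 were tested and none passed (edgeR), with a median log2 fold change of -0.086. Trim24, a ubiquitin ligase that targets p53, was at 42.6, 40.5, 42.5 and 45.6 CPM in HCD 1 to HCD 4, against 56.1, 56.0, 48.3 and 58.9 CPM in ND 1 to ND 4. The groups did not overlap, a separation that 4.73% of the genes tested showed in that direction. The log2 fold change was -0.36 (SE 0.082, edgeR adjusted p = 0.102). DESeq2 called Trim24 (adjusted p = 0.0115), where 1.83% of all genes were called as lower. Mdm4, the relative of Mdm2 that blocks p53 activity and is often raised in melanoma, was at 31.9 ± 4.21 CPM in HCD and 33.9 ± 5.86 CPM in ND (log2 fold change -0.090, edgeR adjusted p = 0.824). Usp7, a deubiquitinase of MDM2 and p53, was at 173 ± 5.87 CPM in HCD and 187 ± 19.6 CPM in ND. Cop1, another ligase, was at 45 ± 3.02 CPM in HCD and 42.0 ± 6.66 CPM in ND, and the phosphatase gene Ppm1d at 23.8 ± 2.64 CPM in HCD and 25.2 ± 2.80 CPM in ND. The log2 fold change of Ppm1d was -0.083, and 0.095 with the term for ND 2, ND 3 and ND 4.

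Cdkn2a, which encodes the MDM2 inhibitor ARF and the CDK inhibitor p16, was nearly absent from the counts. It had 1, 0, 0 and 6 counts in HCD 1 to HCD 4, and 5, 0, 0 and 2 counts in ND 1 to ND 4. The p53 relatives were also at the limit, with 1 count in HCD and 0 counts in ND in all for Trp63, and 0 counts in HCD and 4 counts in ND for Trp73. These genes did not enter the test.

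Apart from the members, 39 p53 targets were listed by role, 36 were tested and none passed (edgeR), with 15 higher and 21 lower in fitted value and a median log2 fold change of -0.088. At an unadjusted p under 0.05 stood 1 in the higher and 7 in the lower direction, against 7.21% and 7.49% of all genes. With the term for ND 2, ND 3 and ND 4 these counts were 0 and 3, and without HCD 4 they were 1 and 4. Of the 6 arrest genes tested, 4 had lower fitted values. Gadd45a, a growth arrest gene that p53 and other stress factors induce, had the smallest adjusted p of the members and listed pathway genes tested. It was at 4.92, 7.51, 7.79 and 6.30 CPM in HCD 1 to HCD 4, against 10.7, 13.0, 13.2 and 13.5 CPM in ND 1 to ND 4. The groups did not overlap, a separation that 4.73% of the genes tested showed in that direction. The log2 fold change was -0.92 (SE 0.164, edgeR adjusted p = 0.0602). DESeq2 called it (adjusted p = 0.000136), where 1.83% of all genes were called as lower. It was also called by edgeR without the filter on low counts (adjusted p = 0.0281). Once ND 2, ND 3 and ND 4 had their own term, the log2 fold change was -0.69 (edgeR adjusted p = 0.378), the replicate block gave an adjusted p of 0.2, and leaving out single libraries gave 0.0809 to 0.154. Its exons share 337 bases with a transcript on the opposite strand, and whether reads were counted by strand is not known here. Plk3, a stress kinase gene, was at 19 ± 2.88 CPM in HCD and 25.2 ± 3.34 CPM in ND, and Sfn, which encodes the arrest protein 14-3-3 sigma, at 2.31 ± 0.357 CPM in HCD and 3.51 ± 0.764 CPM in ND (edgeR adjusted p = 0.219 and 0.267). Gtse1, a G2-phase gene that moves p53 out of the nucleus, was at 83.3 ± 8.35 CPM in HCD and 78.0 ± 11.3 CPM in ND.

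Of the 11 death genes tested, 6 had higher and 5 lower fitted values, and their median log2 fold change was 0.061. Perp, a membrane protein gene of p53 apoptosis, was at 1.5 ± 0.337 CPM in HCD and 2.30 ± 0.51 CPM in ND (edgeR adjusted p = 0.327). Apaf1, the core of the apoptosome, was at 50.4 ± 5.50 CPM in HCD and 43.1 ± 4.99 CPM in ND (edgeR adjusted p = 0.361). Phlda3, which restrains AKT, was at 143 ± 3.79 CPM in HCD and 158 ± 23.4 CPM in ND. Fas, the death receptor gene, did not pass the filter, with 6 to 18 counts in HCD libraries and 3 to 17 counts in ND libraries.

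Of the 8 repair genes tested, 3 had higher and 5 lower fitted values, with a median of -0.12. Xpc, a damage sensor of nucleotide excision repair, was at 56.2 ± 3.67 CPM in HCD and 65.5 ± 6.42 CPM in ND, with no overlap of the groups in CPM but with overlap in FPKM, where HCD ran from 8.49 to 9.95 and ND from 9.68 to 11.6 (log2 fold change -0.22, edgeR adjusted p = 0.284; -0.096 with the term for ND 2, ND 3 and ND 4). Rev3l, a translesion polymerase gene, was at 38.1 ± 1.79 CPM in HCD and 45.1 ± 13.3 CPM in ND.

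Of the 11 metabolic and stress genes tested, 4 had higher and 7 lower fitted values, with a median of -0.086. Sesn2, the stress-induced relative of Sesn1, was at 54.8 ± 4.72 CPM in HCD and 68.3 ± 7.68 CPM in ND (log2 fold change -0.32, edgeR adjusted p = 0.189). Ddit4, an mTORC1 inhibitor gene, was at 49.5 ± 7.65 CPM in HCD and 62.4 ± 3.21 CPM in ND (log2 fold change -0.33, edgeR adjusted p = 0.206). Dcxr, a carbonyl reductase gene, was at 36.5 ± 3.45 CPM in HCD and 43.6 ± 7.64 CPM in ND. Gdf15, a secreted stress cytokine gene, was at 71.2, 23.7, 52.5 and 72.2 CPM in HCD 1 to HCD 4, against 60.9, 94.7, 68.5 and 60.4 CPM in ND 1 to ND 4. HCD 1 and HCD 4 were the upper HCD libraries for Gdf15. The same held for Trp53, Mdm2, Cdkn1a, Bbc3, Ccng1, Trp53inp1 and Sesn1, but not for Bax, Zmat3 or Pmaip1. ND 2 was the highest ND library for Gdf15, as for Cdkn1a, Bax, Ccng1, Trp53inp1 and Sesn1 but not the other members.

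Bbc3, Gadd45a, Sesn2 and Ddit4 are known as targets of the stress factors ATF4 and CHOP as well as of p53. These 4 all had lower fitted values in HCD, and no full list of such shared targets was searched. Other p53 targets went the other way. Pmaip1 had a log2 ratio of group means of 1.15, and 15 of the 36 targets tested outside the members had higher fitted values. Trib3, a pseudokinase gene of that stress response, was at 79.0 ± 2.76 CPM in HCD and 154 ± 24.0 CPM in ND, and Ddit3, which encodes CHOP, at 52.4 ± 1.52 CPM in HCD and 84.4 ± 12.5 CPM in ND. Both passed the threshold as lower in HCD (log2 fold change -0.96 and -0.69, edgeR adjusted p = 0.0225 and 0.0459). Neither passed with the replicate block (edgeR adjusted p = 0.119 for Trib3 and 0.202 for Ddit3), once ND 2, ND 3 and ND 4 had their own term (0.245 for Trib3 and 0.339 for Ddit3), or without any one of HCD 1 to HCD 4, ND 3 or ND 4, and Ddit3 also missed it without ND 1 and with limma-voom. Their log2 fold changes stayed between -1.06 and -0.90 for Trib3 and between -0.78 and -0.61 for Ddit3 in all 15 alternatives. Trib3 and Ddit3 were added after their values were seen. The part of that stress response in the values of the 4 shared targets was not tested.

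Cell cycle genes that p53 represses through p21 and the DREAM complex were read as a group. Of 10 tested, 8 had higher fitted values in HCD, with a median log2 fold change of 0.12, and none passed (edgeR). Ccna2, the S-phase cyclin gene, was at 114 ± 12.3 CPM in HCD and 95.2 ± 6.12 CPM in ND (log2 fold change 0.26, edgeR adjusted p = 0.221). Ccnb1, the mitotic cyclin gene, was at 51.9 ± 2.13 CPM in HCD and 45.9 ± 2.34 CPM in ND, and the mitotic kinase gene Plk1 at 106 ± 2.62 CPM in HCD and 92.4 ± 10.0 CPM in ND (edgeR adjusted p = 0.29 and 0.307). At an unadjusted p under 0.05 stood these 3 of the 10 genes, against 7.21% of all genes in that direction. The count was 1 with the replicate block, with the term for ND 2, ND 3 and ND 4, and without HCD 3, HCD 4, ND 2 or ND 4. The groups did not overlap for Ccna2 and Ccnb1, a separation that 4.94% of all genes showed in that direction.

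**Figure D5:**
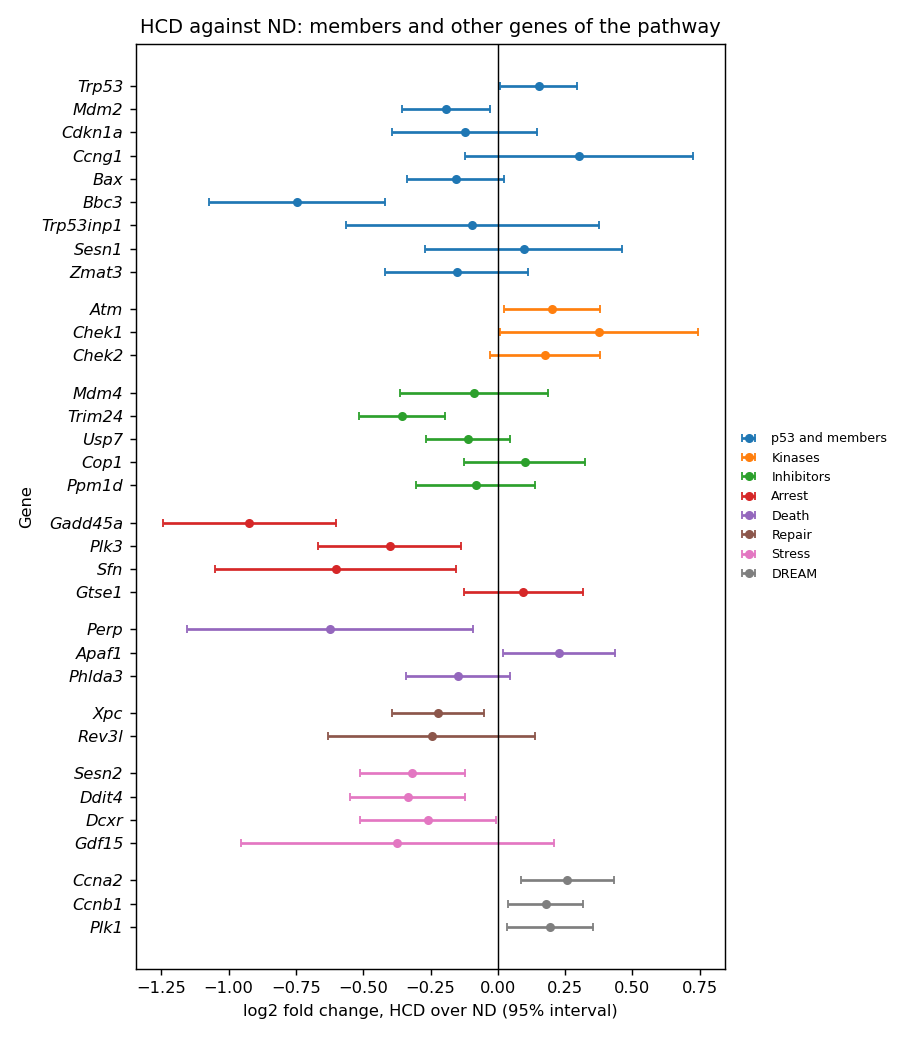
Log2 fold change, HCD over ND, with a 95% interval for the 9 members tested and the other named genes of the pathway, coloured by role. Gadd45a and Bbc3 lie farthest below 0, at -0.92 and -0.75, and none of the genes drawn passed the adjusted threshold.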

How the data were processed

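Tumour RNA was sequenced from paired-end TruSeq libraries, per the labels' protocols. Tools listed in the submitters' processing notes, without roles or order, are HTSeq, TopHat2 2.0.9, edgeR and CASAVA 1.8, with build mm10. Annotation release and strand setting: not given in the sources used here. Each deposited file holds whole-number counts per Ensembl gene and, per the file headers, FPKM, which equal the count divided by a fixed gene length and the library total. Counts were tested and FPKM served for levels between genes.

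Names, exons and coordinates came from GENCODE M21 (34344 of 34745 genes matched), and promoters from RefSeq GRCm38.p6. Under R 4.3.3, genes were tested by quasi-likelihood in edgeR 4.0.16 (with limma 3.58.1), using TMM factors, a minimum count of 10 and minimum total of 15, diet as the only term and Benjamini-Hochberg adjustment over 13186 genes. Standard errors are the log2 fold change over the root of F. Spans of 1.96 SE use a normal multiplier and are narrower than the interval of the test. The script was checked on simulated counts. Pairs of libraries within groups gave chi-square values of 14.5 to 37.6 per degree of freedom, so all 8 counted as samples.

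The members, lists and tests were chosen with earlier results of these data known. Named are all members, up to 3 genes per list with the smallest p, and Mdm4, Cdkn2a, Ppm1d, Gadd45a, Fas, Gdf15, Trp63, Trp73 and Gtse1. Trib3, Ddit3, Aen, Rchy1, Eda2r, Btg2 and Ptprv were added after their values were seen. A gene that the rule names is not reported here. Alternatives were DESeq2 1.42.0, limma-voom, DESeq2 size factors (RLE) or upper-quartile factors in edgeR, no filter, a replicate block, a term for ND 2 to ND 4 and leaving out each library.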

Additional observations from a re-analysis of the deposited data

Results flagged for a closer look

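In 106 groups of 4 libraries checked for a library far from the other 3, 8 stood out, where chance gives about 5.3, and none of the 20 groups of the members was among them. Apaf1 was at 58.6 CPM in HCD 3, against 47.0 to 48.9 CPM in the other HCD libraries. Sesn2 and Dcxr were low in HCD 2, at 47.8 CPM against 56.5 to 58.0 CPM and at 31.3 CPM against 37.8 to 38.5 CPM. Trp63 was at 0.0577 CPM in HCD 3, which is a single count, and at 0 in the other HCD libraries. ND 1 had counts on 16745 genes, against 18088 to 18224 in the other ND libraries, and on 11 olfactory and vomeronasal receptor genes, against 439 to 467. ND 2 had 14.7% mitochondrially encoded counts, against 13.7 to 13.8% in the other ND libraries. The red cell markers summed to 831 FPKM in ND 4, against 87.5 to 192 FPKM in the other ND libraries.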

How the results depend on the processing

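Over all genes, 9 were called higher and 15 lower in HCD. The counts were 38 and 55 without the expression filter, 190 and 241 with DESeq2, 4 and 1 with the term for ND 2, ND 3 and ND 4, and 0 to 6 higher and 0 to 6 lower when a library was left out. With the replicate block they were 0 and 0 (edgeR, 1634 genes at an unadjusted p under 0.05). The labels do not say whether same-numbered samples were paired. Deviations of same-numbered libraries correlated at -0.068 to 0.11, and HCD 1 correlated best with ND 2. With 4 libraries a group these correlations cannot settle whether samples were paired. No member was called without the block, and with it no gene was called at all. Of the members, Bbc3 was called by DESeq2 (log2 fold change -0.75) and by no other alternative. Leaving out a library gave log2 fold changes of -0.22 to 0.043 for Cdkn1a, -0.0042 to 0.29 for Sesn1, -0.30 to 0.071 for Trp53inp1 and, for the pathway gene Mdm4, -0.16 to 0.00086. With the term for ND 2, ND 3 and ND 4, Chek2 was at -0.023 and Ppm1d at 0.095, each with a turned sign. Trp53, Mdm2, Bax, Bbc3, Ccng1 and Zmat3 kept their sign in all 15 alternatives, with adjusted p from 0.234 to 0.871 except for Bbc3 (0.00783 to 0.497). Causes were not tested. Low counts limit what can be said of Pmaip1, Cdkn2a, Fas, Trp63 and Trp73, which reached at most 18 counts per library.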

Other observations

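Aen, an exonuclease gene that p53 induces in apoptosis, took 2 separate levels that did not follow diet, and it was singled out after its values were seen. It was at 20.9, 18.8, 70.9 and 18.1 CPM in HCD 1 to HCD 4, against 16.7, 76.1, 68.8 and 14.8 CPM in ND 1 to ND 4. HCD 3, ND 2 and ND 3 thus stood at 68.8 to 76.1 CPM and the other 5 libraries at 14.8 to 20.9 CPM. No exon of another gene overlaps Aen in GENCODE M21. The nearest profile among genes of at least 5 CPM, Zfp180, differed from it by 0.71 on the log2 scale (root mean square over 8 libraries), where Aen itself deviated by 0.983. Rchy1, a p53 ubiquitin ligase gene, was at 54.8, 32.2, 59.2 and 47.0 CPM in HCD 1 to HCD 4, against 57.7, 28.2, 63.7 and 29.2 CPM in ND 1 to ND 4, with its high and low libraries in both groups. Rchy1 was also chosen after its values were seen, and its exons share 680 bases with Thap6 on the opposite strand.

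Eda2r, a TNF receptor family gene induced by p53, was at 7.01, 3.82, 5.08 and 11 CPM in HCD 1 to HCD 4, against 5.55, 7.90, 5 and 5.76 CPM in ND 1 to ND 4. Btg2, an antiproliferative p53 target, was at 17.6, 10.1, 11.3 and 18.9 CPM in HCD 1 to HCD 4, against 12.1, 16.8, 14.6 and 10.3 CPM in ND 1 to ND 4. HCD 1, HCD 4 and ND 2 were the upper libraries of their groups for both genes, as for Cdkn1a, Ccng1, Trp53inp1 and Sesn1. Eda2r, Btg2 and Ptprv were chosen after their values were seen, so this is a description of 8 libraries. Ptprv, a phosphatase gene of p53 arrest, had 1, 1, 6 and 1 counts in HCD 1 to HCD 4, and 0 counts in every ND library, too few to compare.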
